A study of Rattus norvegicus with 13 samples.

Results

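The genes described are the subunits of the mitochondrial respiratory chain and ATP synthase that are encoded in the nucleus, measured in rat left ventricle. The rule that picks them goes by symbol and signal and not by differences between groups. It takes every probe set annotated with a single symbol that names a subunit of complex I (Nduf), II (Sdh), III (Uqcr and Cyc1), IV (Cox4 to Cox8) or V (Atp5), with 1 supercomplex assembly factor, Cox7a2l, left out. Where a gene had several probe sets, the one with the highest mean log2 signal over the 13 arrays was used. This gave 79 genes of 14217 with such a probe set, namely 33 of complex I, 4 of complex II, 8 of complex III, 18 of complex IV and 16 of complex V. Ndufa4 and Ndufa4l2 were counted with complex IV, to which Ndufa4 protein belongs. The probe sets of Atp5mc1, Atp5mc2, Cox7a2, Uqcrb, Ndufs5 and Ndufa10 each carry a second symbol, so these genes are not described here.

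The arrays hybridized RNA from the left ventricle of late-pregnant female Sprague Dawley rats. There were 4 arrays from L-NAME-fed rats (1 g/L in the drinking water), 4 arrays from methionine-fed rats (9 g/L) and 5 arrays from control rats given plain water, with treatment over days 1 to 20 of pregnancy and hearts taken on day 20 or 21. L-NAME is an inhibitor of nitric oxide synthases, and methionine feeding raises plasma homocysteine. The study's methods describe the methionine-fed and control rats as multiparous and do not describe the L-NAME-fed rats. Those methods give methionine from the first pregnancy onward, whereas the labels give days 1 to 20. For the arrays they name 4 control and 4 methionine-fed ventricles, while 5 control arrays are used here. Nothing in the labels says whether each array came from a different heart, so p-values measure the spread between these arrays.

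Complexes I and II pass electrons from NADH and from succinate to ubiquinone, complex III passes them on to cytochrome c, and complex IV hands them to oxygen. The protons pumped by complexes I, III and IV drive the rotation of ATP synthase, complex V. Cardiac muscle is packed with mitochondria, and its contraction depends on this pathway. In heart and skeletal muscle several complex IV subunits exist as a muscle isoform beside a ubiquitous one.

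The subunit genes were among the brightest on the array. The signals are on a linear scale on which each array's trimmed mean is the same, and they are given here as log2 values. Of the 79 genes, 77 had at least the median signal of all 31042 probe sets tested, and 70 had a mean log2 signal of 10 or more. Cox7b2 and the pseudogene Cox6c-ps1 lay below that median and are named only for completeness, since within each group their signals had an SD between 0.89 and 1.88 log2 units. Because bright probe sets as a class differed between groups, the 1231 other probe sets with a mean log2 signal of 10 or more are given beside the subunit genes.

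The promoters of a few members are shown first, because their motifs were searched for across the set. RefSeq promoter sequences (build GRCr8, 250 bases before to 50 bases after the annotated start, 5' to 3' on the gene's strand) were found for 70 of the 79 genes. The sites of 4 factors known for controlling respiratory genes were searched on both strands. GCGCANGCG (NRF1) was found in 16 of the 70 promoters, 22.9%, against 6.26% of all 27457 promoters. CCGGAAGT (GABPA) was found in 8, 11.4% against 4.01%. ATGGCGGC (YY1) was found in 11, 15.7% against 2.76%, and TCAAGGTCA (the estrogen-related receptors) in 2, 2.86% against 0.412%. Since the NRF1 motif is close to its own reverse complement, neighbouring matches on the 2 strands can overlap, as they do in Ndufa11. A match describes letters in a window and not a bound site. Ndufb8 had the highest and Ndufs7 the lowest log2 change of the complex I members in L-NAME-fed hearts on the deposited scale, and both hold the YY1 motif (capitals) downstream of the start. Ndufb8 lies at chr1:253362887-253363186 and Ndufs7 at chr7:10110449-10110748, both on the minus strand.
Ndufb8: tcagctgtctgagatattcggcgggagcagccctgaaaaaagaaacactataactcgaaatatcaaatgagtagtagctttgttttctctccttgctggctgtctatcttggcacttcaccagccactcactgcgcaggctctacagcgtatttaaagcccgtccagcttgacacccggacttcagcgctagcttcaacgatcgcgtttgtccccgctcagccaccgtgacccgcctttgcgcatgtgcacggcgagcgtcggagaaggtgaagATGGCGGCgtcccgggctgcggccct
Ndufs7: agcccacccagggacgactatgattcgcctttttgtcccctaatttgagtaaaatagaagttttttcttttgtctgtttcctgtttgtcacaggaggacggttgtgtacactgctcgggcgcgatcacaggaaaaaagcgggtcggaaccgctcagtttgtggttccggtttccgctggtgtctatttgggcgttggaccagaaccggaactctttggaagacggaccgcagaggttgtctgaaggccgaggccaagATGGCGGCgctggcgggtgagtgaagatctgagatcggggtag
Sdha, the catalytic subunit of complex II (chr1:30764303-30764602, plus strand), holds 3 separate NRF1 motifs, and Ndufb10, 1 of the 3 members called higher with L-NAME (chr10:14255917-14256216, minus strand), holds 1. They are shown with the motif in capitals.
Sdha: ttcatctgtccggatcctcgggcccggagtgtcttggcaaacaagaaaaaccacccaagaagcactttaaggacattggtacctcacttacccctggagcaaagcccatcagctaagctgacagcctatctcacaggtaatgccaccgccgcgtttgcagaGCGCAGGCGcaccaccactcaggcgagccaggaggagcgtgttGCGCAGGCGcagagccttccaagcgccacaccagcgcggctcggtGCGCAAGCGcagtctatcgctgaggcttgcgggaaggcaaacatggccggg
Ndufb10: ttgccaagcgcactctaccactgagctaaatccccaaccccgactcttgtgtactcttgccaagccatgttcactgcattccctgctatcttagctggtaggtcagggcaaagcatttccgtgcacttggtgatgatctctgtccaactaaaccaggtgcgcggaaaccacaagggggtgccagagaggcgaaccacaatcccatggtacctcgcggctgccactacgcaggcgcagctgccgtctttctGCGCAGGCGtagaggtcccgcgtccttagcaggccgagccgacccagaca
Uqcrq, the complex III gene with the most negative change in L-NAME-fed hearts (chr10:38089929-38090228, minus strand), holds the GABPA motif, again in capitals.
Uqcrq: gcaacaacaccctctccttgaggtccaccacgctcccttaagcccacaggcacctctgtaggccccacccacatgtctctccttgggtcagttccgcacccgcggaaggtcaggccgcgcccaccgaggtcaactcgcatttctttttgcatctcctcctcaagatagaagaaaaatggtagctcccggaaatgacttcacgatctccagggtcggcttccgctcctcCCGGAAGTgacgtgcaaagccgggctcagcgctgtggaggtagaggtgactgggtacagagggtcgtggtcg

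In L-NAME-fed hearts most subunit genes of complexes I, III, IV and V had a lower signal than in control hearts on the deposited scale. At an adjusted p under 0.05 (limma, Benjamini-Hochberg over all 31042 probe sets), 66 of the 79 were lower, 3 were higher and 10 were not called, against 17.0% of all probe sets lower and 28.7% higher. With quantile normalization the split was 42 lower and 15 higher, against 6796 lower and 6823 higher of all 31042 probe sets. With each array centred on its median it was 74 lower and 0 higher, against 9232 and 4952 of all probe sets. The median log2 change of the 79 genes was -0.57, a signal 0.673 times that in control hearts, while the median over all probe sets was 0.22. Bright probe sets in general were also lower, with a median of -0.37 over the 1231 others, of which 67.7% were called lower and 7.15% higher. Among the 70 members at or above the same signal limit, 87.1% were called lower and 1.43% higher. The sets share this lower limit and were not matched for signal above it. Of those 70, 54 lay under the median of the other bright probe sets, 33 below their 25th percentile and 7 above their 75th percentile. The 4 L-NAME-fed arrays lay wholly below the 5 control arrays for 64 members and wholly above them for 3, against 14.5% and 25.8% of all probe sets. In bulk tissue, fewer cardiomyocytes and less RNA per cardiomyocyte cannot be told apart.

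The lower signal was present on each L-NAME-fed array. Setting each gene against its control mean, the median change over the members was -0.65, -0.61, -0.47 and -0.58 on L-NAME-fed arrays 1 to 4, and it lay between -0.064 and 0.019 on the 5 control arrays. The other bright probe sets had medians of -0.43, -0.38, -0.31 and -0.39 on the same L-NAME-fed arrays. Thus on each of the 4 arrays the members sat 0.16 to 0.23 below the other bright probe sets (-0.20 ± 0.03, SD), whereas on the control arrays that gap was between -0.020 and 0.021. This gap is a difference within an array, so a shift common to all of an array's probe sets does not enter it. A shift that depends on signal can enter it. With quantile normalization the median change was -0.17 for the members and -0.049 for the other bright probe sets. By complex, the L-NAME-fed arrays gave medians of -0.59 ± 0.06 for complex I, -0.26 ± 0.08 for complex II, -0.64 ± 0.07 for complex III, -0.60 ± 0.04 for complex IV and -0.60 ± 0.10 for complex V (SD, n = 4 arrays). Complex II was the least changed of the 5 on all 4 arrays and lay above the other bright probe sets there, with values between -0.34 and -0.16.

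**Figure D1:**
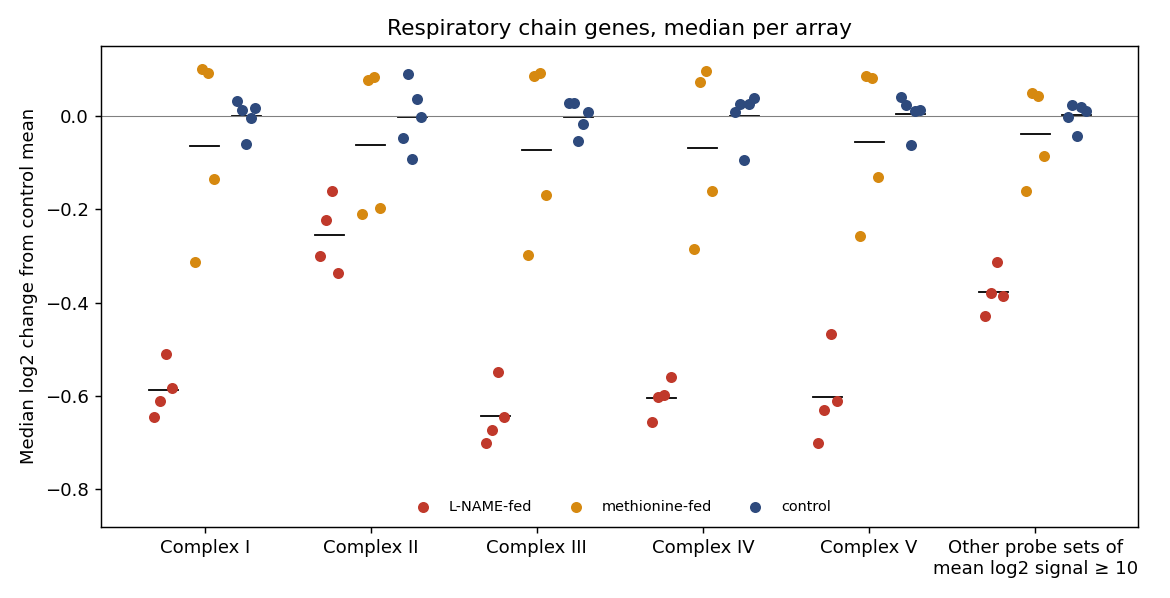
Median log2 change from the control mean (vertical axis) on every array, for the members of each complex and for the 1231 other probe sets with a mean log2 signal of 10 or more, with black bars for group means over arrays. L-NAME-fed arrays lie below the control arrays in all 6 columns on the deposited scale, with complex II nearest to control, and 2 of the 4 methionine-fed arrays lie above the control mean and 2 below it.

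The direction was tested under 6 scalings of the same arrays, namely the deposited one, quantile normalization, cyclic loess, and centring of each array on its median, on 18 spike-in probe sets or on the other bright probe sets. The deposited scale and the centrings differ from each other only by a constant per array, so the 6 are not separate checks. In all 6, 34 members were called lower, of which 16 belong to complex I, 5 to complex III, 7 to complex IV, 6 to complex V and 0 to complex II. The share of all or of the other bright probe sets called lower in all 6 was not worked out, so this count has no background. No member was called higher in all 6. Ndufb8, Ndufb10 and Ndufa13 were higher in 5 of 6, and 12 members were called lower under at least 1 scaling and higher under another. The member median stayed below 0 in each, from -0.997 with median centring to -0.17 with spike-in centring, where the other bright probe sets had medians of -0.80 and 0.030. The L-NAME-fed arrays also differed in measures of the RNA and of the array. Their log2 ratio of 3' to 5' beta-actin signal was 2.48 ± 0.16, against 3.47 ± 0.14 on control arrays (SD, n = 4 and 5, 2-sided exact permutation test p = 0.00794, the smallest this design allows), and the ratio did not overlap between the groups. A fit with this ratio as a covariate therefore cannot tell it apart from L-NAME feeding. In that fit limma called 3 members lower and 0 higher, at a median log2 change of -0.51. The Gapdh 3' to 5' ratio was 0.56 ± 0.09, against 1.18 ± 0.11 on control arrays. The spike-in probe sets had a mean log2 signal of 9.91 ± 0.075, against 10.32 ± 0.10, a difference of -0.40. Each gave an exact permutation p of 0.00794. Whether the L-NAME-fed arrays were labelled or hybridized apart from the others is not given. The part of these measures in the member values was not tested.

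**Figure D2:**
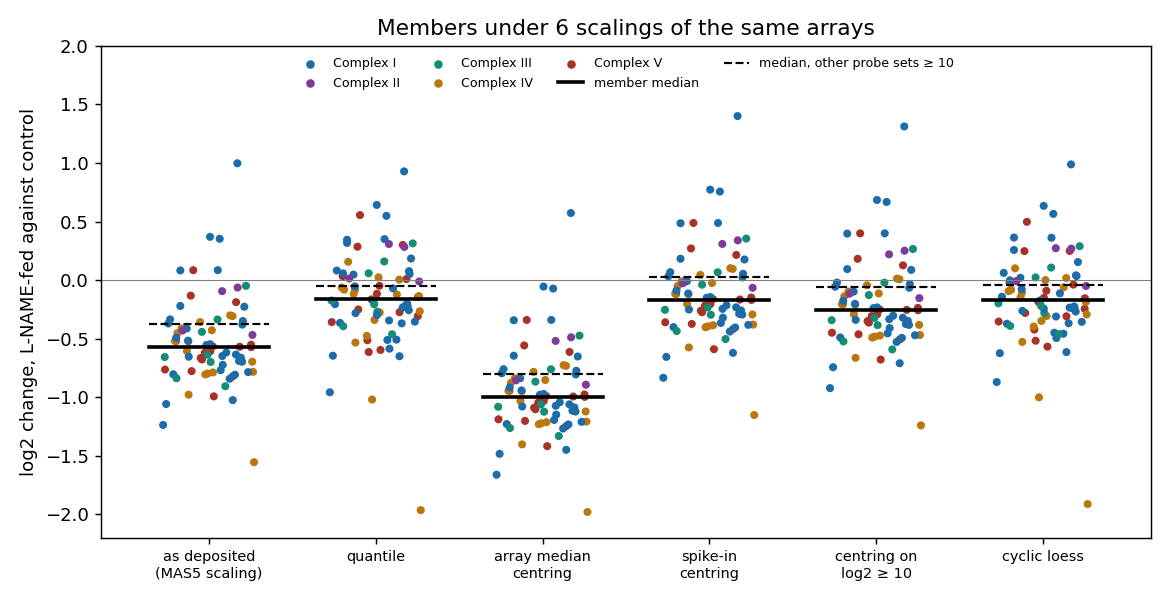
Log2 change of 77 members in L-NAME-fed against control hearts (vertical axis) under 6 scalings, with random horizontal spread and colour by complex. The solid bar is the member median and the dashed bar the median of the other probe sets with a mean log2 signal of 10 or more. The member median lies below the dashed bar in each scaling, while members near 0 change sign between them.

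Complex I carried both the lowest bright members and the 3 that were higher. Ndufs7, a core subunit that binds the last iron-sulfur cluster before ubiquinone, had log2 signals of 10.16, 9.97, 10.15 and 9.97 in L-NAME-fed hearts, against 11.36, 11.30, 11.30, 11.25 and 11.28 in control hearts. The groups did not overlap, and the highest L-NAME-fed array was more than 1 log2 unit under the lowest control array. Its log2 change was -1.24 ± 0.10 (SE, adjusted p = 1.1e-07, limma), a signal 0.424 times that in control, and between -1.66 and -0.83 over the 6 scalings. The supernumerary subunits Ndufa3 and Ndufb2 followed, with changes of -1.06 ± 0.08 and -1.02 ± 0.07 and no positive value under any scaling. Ndufv1, the flavoprotein that binds NADH, changed by -0.84 ± 0.08 and by -1.27 to -0.44 over the scalings. Ndufs1, the large iron-sulfur protein of the same NADH-oxidizing arm, changed by -0.35 ± 0.08 on the deposited scale (adjusted p = 0.0013, limma) and by 0.052 with quantile normalization. All 6 measured core subunits were called lower on the deposited scale, with a median of -0.70, and 22 of the 27 supernumerary ones were, with a median of -0.55. The other bright probe sets had a median of -0.37, with 67.7% lower.

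Ndufb8, a supernumerary subunit of the membrane arm, had log2 signals of 8.60, 8.82, 9.14 and 9.12 in L-NAME-fed hearts and of 7.91, 8.54, 8.20, 7.74 and 7.22 in control hearts. The groups did not overlap, though the lowest L-NAME-fed array was close to control array 2, and the control arrays spread over more than 1 log2 unit. The log2 change was 1.00 ± 0.23 (adjusted p = 0.0020, limma), and it stayed between 0.57 and 1.40 over the 6 scalings, without a call under median centring. Ndufb10, also of the membrane arm, had 10.51, 10.32, 10.52 and 10.52 in L-NAME-fed hearts, against 10.29, 10.05, 10.01, 10.10 and 10.02 in control hearts. L-NAME-fed array 2 stood apart from its 3 close companions and lay just above control array 1. The change was 0.37 ± 0.09 (adjusted p = 0.0022, limma), but -0.055 with median centring. Ndufa13, a small supernumerary subunit, had 10.16, 10.03, 10.24 and 10.01 in L-NAME-fed hearts and 9.86, 9.86, 9.66, 9.74 and 9.67 in control hearts. These groups were likewise separate, and the change was 0.35 ± 0.08 (adjusted p = 0.0014, limma), or -0.072 with median centring. Ndufa8 and Ndufb7 were not called on the deposited scale, at 0.09 ± 0.09 and 0.08 ± 0.10, but each was called higher in 4 of the 6 scalings and lower in 1.

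Complex II, the only one of the 5 with no mitochondrially encoded subunit, was split on the deposited scale. Sdhd, a membrane anchor, had 10.96, 10.98, 11.13 and 10.86 in L-NAME-fed hearts, against 11.31, 11.59, 11.43, 11.43 and 11.50 in control hearts. Every L-NAME-fed array was below every control array, at a change of -0.47 ± 0.08 (adjusted p = 0.00024, limma), but it was called in 2 of the 6 scalings, with -0.011 under quantile normalization. A second probe set of Sdhd, nearly as bright, gave -0.08 ± 0.09 and was not called. Sdha, the flavoprotein that oxidizes succinate, changed by -0.43 ± 0.09 (adjusted p = 0.00093, limma) on the deposited scale and by 0.015 with quantile normalization. The iron-sulfur subunit Sdhb and the anchor Sdhc had -0.09 ± 0.08 and -0.06 ± 0.08, neither called, and both were called higher in 4 of the 6 scalings and lower in 1.

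In complex III, 7 of 8 members were lower on the deposited scale, against 17.0% of all probe sets and 67.7% of the other bright ones, and Uqcrc1 was not called. Uqcrq, a small supernumerary subunit, had 10.78, 10.84, 10.74 and 10.82 in L-NAME-fed hearts and 11.66, 11.74, 11.67, 11.68 and 11.76 in control hearts. The arrays of each group lay close together and the groups far apart. The change was -0.91 ± 0.07 (adjusted p = 9.7e-08, limma), and -1.33 to -0.46 over the 6 scalings. Uqcr10 fell by 0.84 and Cyc1, the cytochrome c1 that hands electrons to cytochrome c, by 0.70, both called lower in all 6 scalings. The Rieske iron-sulfur protein Uqcrfs1 changed by -0.34 ± 0.09 on the deposited scale but by 0.16 with quantile normalization, where it was called higher. Uqcrc1, a core protein, had 10.68, 10.68, 10.75 and 10.64 in L-NAME-fed hearts, against 10.80, 10.67, 10.75, 10.74 and 10.72 in control hearts. These groups overlapped, at a change of -0.05 ± 0.09 (adjusted p = 0.68, limma), yet it was called higher in 4 of the 6 scalings and lower in 1.

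In complex IV, 15 of 18 members were lower on the deposited scale, to be read against the same 17.0% and 67.7%. The heart and muscle isoform Cox6a2 had 10.66, 10.71, 10.87 and 10.83 in L-NAME-fed hearts, against 11.79, 11.74, 11.71, 11.71 and 11.78 in control hearts. The groups were far apart, with a change of -0.98 ± 0.09 (adjusted p = 2.8e-07, limma) and -1.40 to -0.53 over the scalings. Cox6a1, its ubiquitous counterpart, changed by -0.31 ± 0.09 on the deposited scale and by 0.096 with spike-in centring. Cox8b, the muscle isoform of subunit 8, changed by -0.78 ± 0.08, and Cox8a, the ubiquitous one, by -0.45 ± 0.09, called in 2 of the 6 scalings (-0.049 with spike-in centring). Cox4i1 changed by -0.52 ± 0.08, called in 3 of the 6 (-0.063 with quantile normalization), and Cox5a by -0.41 ± 0.08, with Cox5a at 0.16 under quantile normalization. Cox7a1, another muscle isoform, had -0.30 ± 0.13 and was not called (adjusted p = 0.067, limma). The dim Cox6b2, known as a testis isoform, had 4.66, 4.43, 4.57 and 5.31 in L-NAME-fed hearts and 6.40, 6.27, 6.65, 6.06 and 6.10 in control hearts. It was lower on each L-NAME-fed array, by 1.55 on the log2 scale, the lowest change among the members.

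Ratios between isoforms were compared within each array, where a common scaling factor cancels. The log2 ratio of Cox6a2 to Cox6a1 was 0.33 ± 0.08 on L-NAME-fed arrays, against 1.00 ± 0.10 on control arrays (SD, n = 4 and 5), a difference of -0.67. The 2 groups did not overlap, and the 2-sided exact permutation test gave p = 0.00794, or 0.0476 after Benjamini-Hochberg adjustment over 12 tests. For Cox8b and Cox8a the ratio was 0.51 ± 0.08 on L-NAME-fed arrays and 0.84 ± 0.09 on control arrays, a difference of -0.33 with the same exact p and adjusted p. Centring an array by a constant leaves such ratios as they are, so only quantile normalization and cyclic loess could move them. The differences were then -0.54 and -0.55 for the Cox6a pair and -0.18 and -0.21 for the Cox8 pair. Both probe sets of a pair sit at high signal, but the muscle isoform had the brighter one. Mean log2 control signals were 11.75 for Cox6a2 and 10.75 for Cox6a1, and 11.94 for Cox8b and 11.10 for Cox8a. Among the bright members, those with a higher control signal had more negative changes, and the part of this in the ratios was not tested. Unequal change of the pair is all that such a ratio shows. The ratio of the hypoxia-associated Cox4i2 to Cox4i1 differed by 0.16 (exact permutation p = 0.333, adjusted 0.495), with a sign that turned under quantile normalization, at -0.41. Cox4i2 alone changed by -0.36 ± 0.12 (adjusted p = 0.020, limma), or by 0.045 with spike-in centring, and its call was lost without L-NAME-fed array 2 or 3. Ndufa4l2, known in mouse and human cells as a target of hypoxia-inducible factor, changed by -0.81 ± 0.15 alone (adjusted p = 0.00036, limma) against -0.43 ± 0.07 for Ndufa4, which turned to 0.024 with quantile normalization. The ratio of the 2 differed by -0.38, with an exact permutation p of 0.0635, 0.127 after adjustment, and by -1.04 with quantile normalization, the lowest of the 6 scalings.

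**Figure D3:**
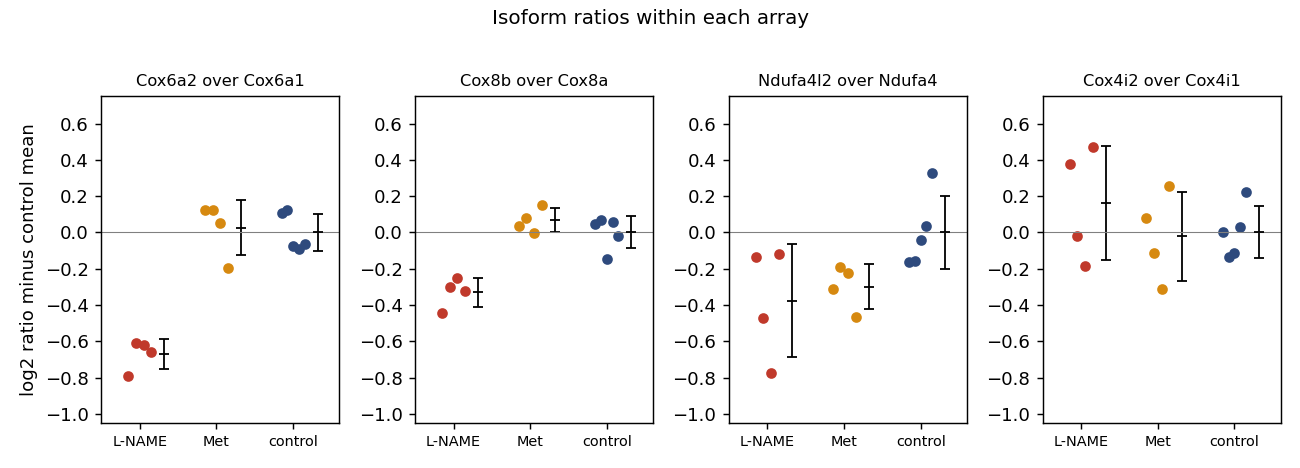
Log2 ratio of paired isoforms on each array minus the control mean of that ratio (vertical axis), by group, with group mean and SD beside the points. The 4 L-NAME-fed arrays lie below all control and methionine-fed arrays for Cox6a2 over Cox6a1 and for Cox8b over Cox8a, and overlap the control arrays for the other 2 pairs.

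In ATP synthase the 5 measured genes of F1, the catalytic head with its central stalk, were lower on the deposited scale, with a median of -0.57. So were the 6 of the membrane part, with a median of -0.71. The other bright probe sets had a median of -0.37, with 67.7% called lower, against 17.0% of all probe sets. Within F1, the central stalk genes Atp5f1c and Atp5f1d were each called lower in 3 of the 6 scalings, with Atp5f1c at 0.034 under quantile normalization. The parts were not tested against each other. Atp5mf, a small membrane subunit, had 10.43, 10.60, 10.78 and 10.54 in L-NAME-fed hearts, against 11.63, 11.50, 11.57, 11.60 and 11.60 in control hearts. The groups were clearly separate, at a change of -0.99 ± 0.09 (adjusted p = 2.9e-07, limma) and -1.42 to -0.57 over the scalings. Atp5mk changed by -0.82 ± 0.08, and the catalytic alpha and beta subunits Atp5f1a and Atp5f1b by -0.61 ± 0.08 and -0.57 ± 0.08. These 3 had no positive value under any of the 6 scalings. The delta subunit gene Atp5f1d changed by -0.55 ± 0.11, and the c-ring gene Atp5mc3 by -0.57 ± 0.09, or by 0.0093 with quantile normalization. Atp5if1, the inhibitor that blocks ATP hydrolysis by the enzyme, changed by -0.68 ± 0.11 and stayed negative over the scalings.

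The peripheral stalk, which holds the head still against the rotor, had a median of -0.16 over 4 genes, from -0.62 to 0.085. Atp5pb, its b subunit, had 11.14, 11.36, 11.33 and 11.21 in L-NAME-fed hearts, against 11.25, 11.19, 11.11, 11.18 and 11.15 in control hearts. The groups overlapped, and the change of 0.09 ± 0.07 was not called (adjusted p = 0.38, limma). It was called higher in 4 of the 6 scalings and lower with median centring, at -0.34. Atp5pf and Atp5pd had -0.13 ± 0.07 and -0.19 ± 0.07, of which the second was called lower on the deposited scale and higher in 3 other scalings. Atp5pf was called higher in 4 of the 6 scalings and lower in 1. Atp5po, which joins the stalk to the head, was called lower in all 6 scalings, at -0.62 ± 0.08 on the deposited one.

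**Figure D4:**
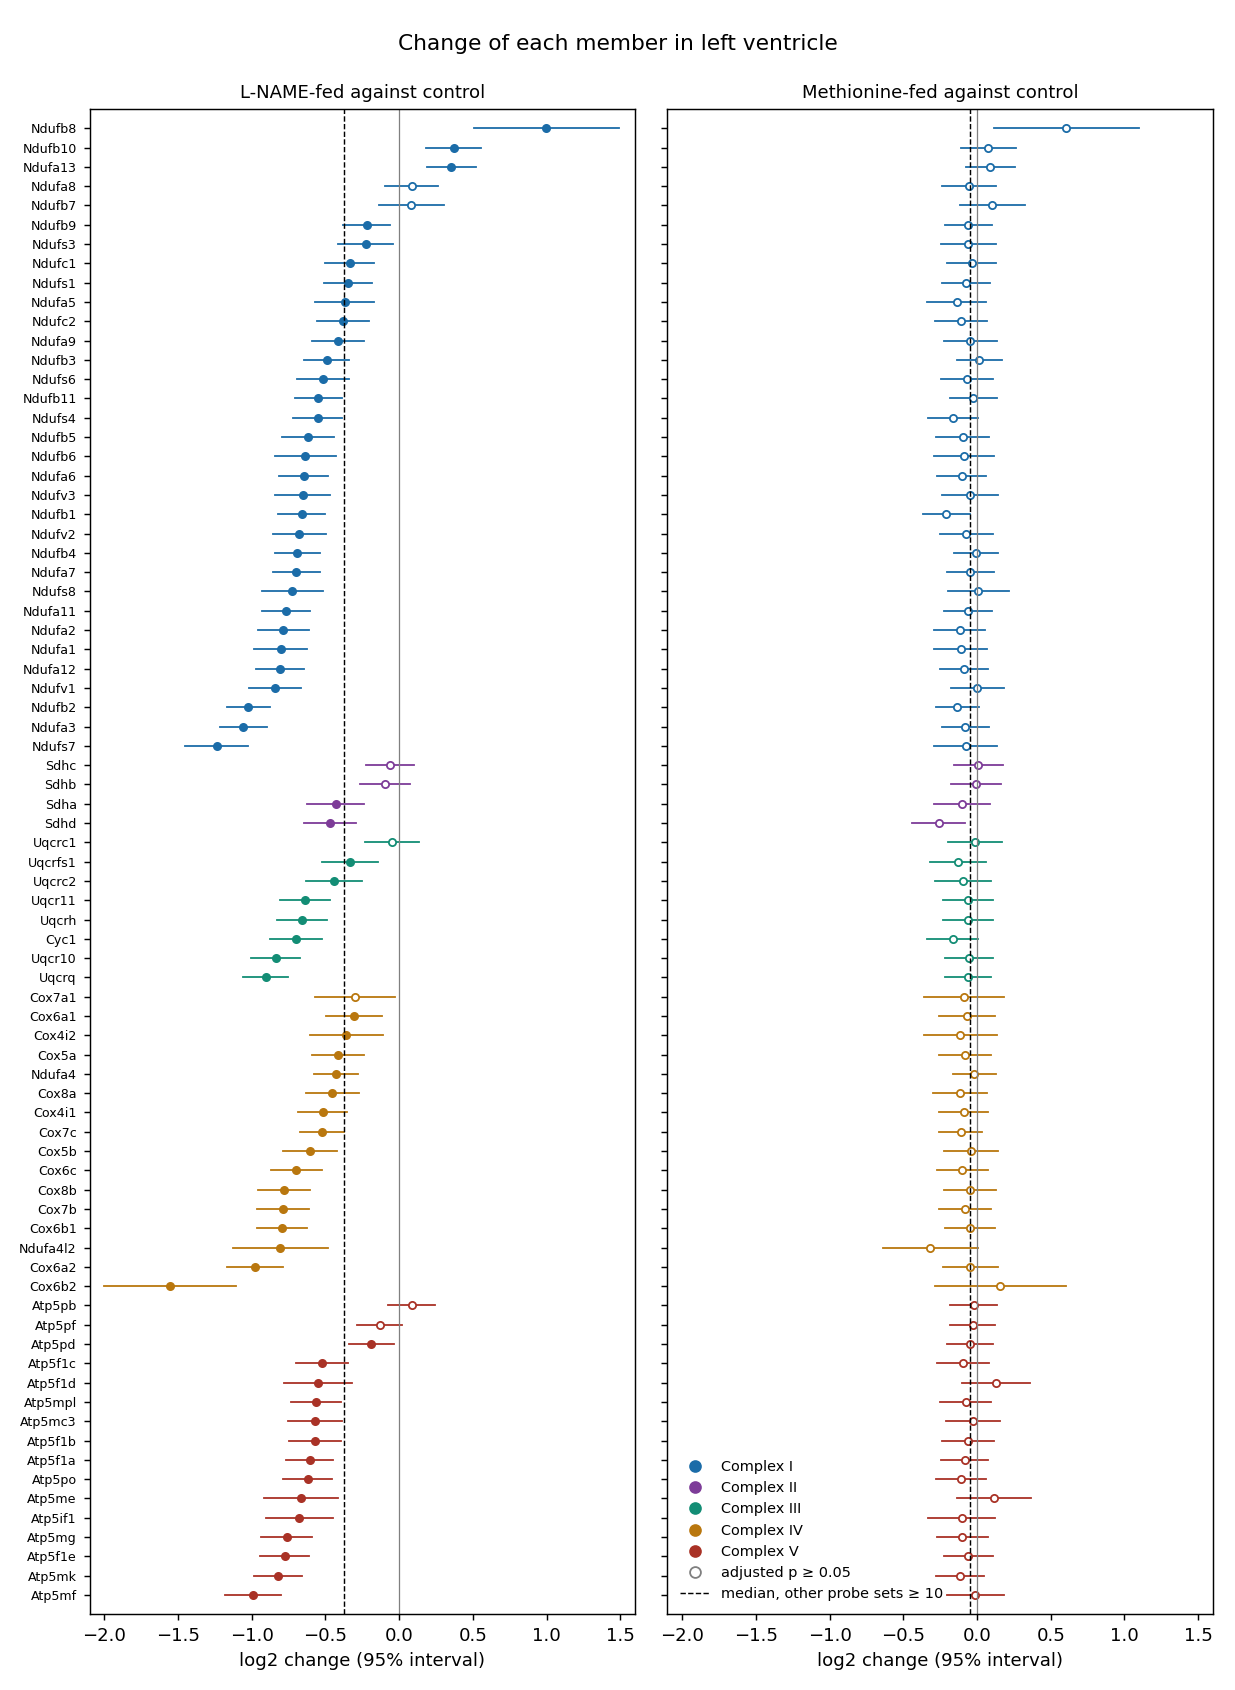
Log2 change of 77 members (rows, by complex) with 95% intervals from limma, in L-NAME-fed against control hearts (left) and methionine-fed against control hearts (right). Filled points have an adjusted p under 0.05 and the dashed line is the median of the other probe sets with a mean log2 signal of 10 or more. On the deposited scale 66 members lie to the left with filled points in the left panel, and none is filled in the right panel.

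Members read by more than 1 probe set did not give 1 answer. Of 8 such genes, the dimmer probe set of Uqcrc2 changed by 1.70 ± 0.13 in L-NAME-fed against control hearts and the brighter one by -0.44 ± 0.09. For Ndufv3 the dimmer probe set gave 1.55 ± 0.15 and the brighter -0.65 ± 0.09. Ndufa7 gave 0.66 ± 0.12 and -0.70 ± 0.08, and Atp5po 0.58 ± 0.18 and -0.62 ± 0.08, the dimmer probe set first each time. All 8 of these changes were called (limma). The dimmer probe set of Atp5me had 0.37 ± 0.29 and was not called, while those of Ndufa9 and Atp5if1 had negative values like the brighter ones. What part of each transcript the probe sets read was not examined, and the brighter probe set was kept for every gene.

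**Figure D5:**
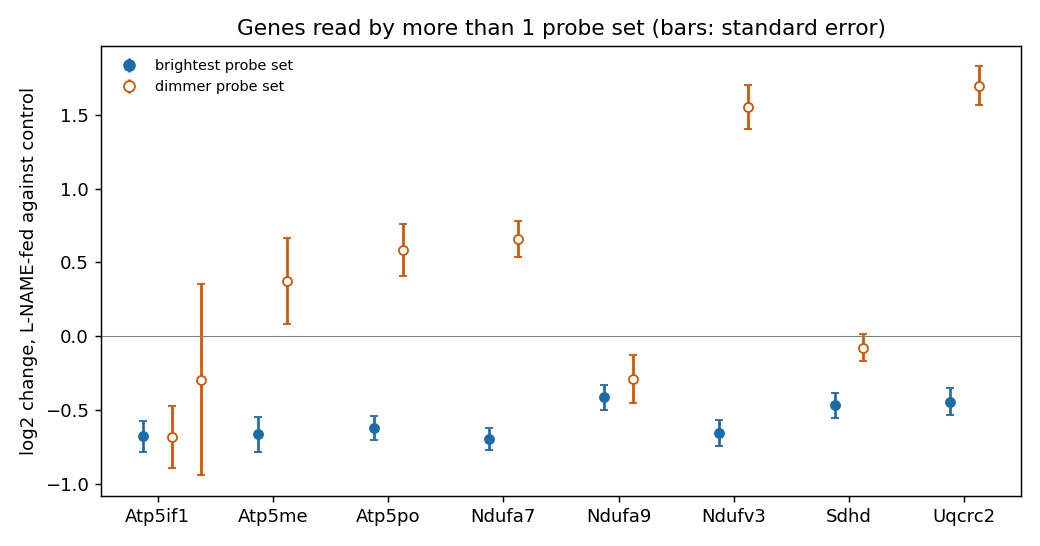
Log2 change with standard error in L-NAME-fed against control hearts (vertical axis, deposited scale) for the brightest probe set (filled) and the dimmer ones (open) of 8 members. For Uqcrc2, Ndufv3, Ndufa7 and Atp5po the 2 probe sets lie on opposite sides of 0.

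Within the 70 bright members, the log2 change in L-NAME-fed hearts was more negative for genes with a higher control signal (Pearson r = -0.52, Spearman rho = -0.47, across genes that share the same arrays, with the control mean entering both axes). Over all 79 members r was -0.05 and rho -0.38. Longer genes had slightly less negative values (r = 0.22, rho = 0.30), and the GC content of the promoter had r = 0.17 and rho = 0.19 over the 63 with a promoter. The NRF1 motif was present in 7 of 31 promoters of members called lower in all 6 scalings and in 9 of 39 promoters of the other members. The YY1 motif was present in 3 and 8 of them.

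Other genes of the pathway were read for comparison, from lists written for this tissue. Of 45 measured assembly factors, 21 were lower and 12 higher in L-NAME-fed against control hearts, with a median of -0.063. Tmem70, needed for assembly of ATP synthase, changed by 1.77 ± 0.13, and Sdhaf1, which serves complex II, by -1.09 ± 0.09. Of 22 genes of mobile carriers, ubiquinone synthesis and adenine nucleotide exchange, 13 were lower and 3 higher, with a median of -0.33, including the ubiquinone genes Coq8a at -1.32 ± 0.08 and Coq3 at 0.86 ± 0.09. Of 22 transcriptional and mitochondrial DNA regulators, 9 were lower and 4 higher, with a median of -0.20, the transcriptional cofactor Hcfc1 changing by 0.74 ± 0.09 and the mitochondrial polymerase subunit Polg2 by -1.24 ± 0.11. Of 73 mitochondrial ribosomal protein genes, 31 were lower and 22 higher, with a median of -0.12. The 13 mitochondrially encoded subunits had no probe set with their symbol alone. These counts are on the deposited scale, where 17.0% of all probe sets were lower and 28.7% higher, so the shares on the higher side for assembly factors and ribosomal proteins lie near the background. Of the 22 carrier, ubiquinone and exchange genes, 15 had a mean log2 signal of 10 or more. Other probe sets at that signal had 67.7% lower and a median of -0.37, so the median of -0.33 is no lower than theirs. The scaling dependence was not worked through for these lists.

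Cell type markers were read on the same arrays. All 9 measured cardiomyocyte markers were lower in L-NAME-fed hearts, with a median of -0.63, and their summed signal was 21291 to 24896 on L-NAME-fed arrays, against 32902 to 36225 on control arrays. The 9 were all well above the median signal in this ventricular tissue. Atrial markers (4) were called in neither direction. Called lower and higher were 4 and 1 of 7 endothelial, 2 and 2 of 5 smooth muscle, 2 and 0 of 6 fibroblast, 2 and 2 of 7 leukocyte, 1 and 0 of 3 blood, 1 and 0 of 5 adipocyte and 1 and 1 of 6 skeletal muscle markers. These counts stand against the same 17.0% lower and 28.7% higher of all probe sets, and those of the bright cardiomyocyte markers against 67.7% lower of the other bright ones. Their part in the change of the subunit genes was not tested.

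L-NAME-fed hearts were also compared with methionine-fed hearts. On the deposited scale limma called 58 members lower and 2 higher, against 14.9% and 25.4% of all probe sets, with a median of -0.51, against 0.25 over all probe sets and -0.32 over the other bright ones. With quantile normalization the counts were 37 lower and 14 higher, against 5752 lower and 5634 higher of all 31042 probe sets. Ndufs7 changed by -1.16 ± 0.11 and Atp5mf by -0.98 ± 0.10. Ndufb10 and Ndufa13 were the 2 higher members, at 0.29 ± 0.09 and 0.26 ± 0.08 (adjusted p = 0.0179 and 0.0176, limma), and both were below 0 with median centring. This comparison and that with control share the L-NAME-fed arrays.

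Methionine feeding gave no called difference in any subunit gene. At an adjusted p under 0.05, 0 of 79 were higher and 0 lower (limma, with 0% of all probe sets called in each direction). Before adjustment, 1 member reached p under 0.05 on the higher side and 2 on the lower side, against 5.72% and 4.97% of all probe sets. No member had methionine-fed arrays all above or all below the control arrays, against 1.34% and 1.55% of all probe sets. The median change was -0.061, with 67 of 79 members (84.8%) below 0, while all probe sets had a median of 0.0039 and the other bright ones -0.046. Of all probe sets 49.3% were below 0, and of the other bright ones 68.9%. The members nearest to a call were Sdhd at -0.26 ± 0.08 (adjusted p = 0.325, limma), Ndufb1, a supernumerary subunit of complex I, at -0.21 ± 0.07 (adjusted p = 0.36) and Ndufb8 at 0.61 ± 0.23 (adjusted p = 0.377). Sdhd had 10.96, 11.37, 11.27 and 11.16 in methionine-fed hearts, against 11.31, 11.59, 11.43, 11.43 and 11.50 in control hearts, so that methionine-fed array 2 overlapped with control array 1. Its second, nearly as bright probe set gave 0.026 ± 0.092. For Ndufs7 the 95% interval of the change was -0.29 to 0.14, and for Atp5mf it was -0.20 to 0.18.

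On each methionine-fed array the members lay mostly to 1 side of control, and the side differed between arrays. Set against the control mean, the member medians were -0.28, 0.088, 0.092 and -0.14 on methionine-fed arrays 1 to 4, and 78, 11, 14 and 70 of the 79 members were below the control mean on them. On the 5 control arrays between 24 and 63 members were below it. The other bright probe sets had -0.16, 0.049, 0.042 and -0.085 on the same 4 arrays, and the median signal of all probe sets was 29.2, 26.8, 25.8 and 29.0. Arrays 1 and 4, the low ones for the members, thus had the 2 highest medians over all probe sets in the group. Their part in the member values was not tested. The typical SD of a member between arrays was 0.20 in methionine-fed hearts, 0.10 in L-NAME-fed hearts and 0.061 in control hearts (median over members). Without methionine-fed array 1 the median change of the members was 0.017 instead of -0.061. The ratio of Ndufa4l2 to Ndufa4 was lower on all 4 methionine-fed arrays than on the control arrays, by 0.30 on the log2 scale (exact permutation p = 0.0238, 0.0686 after adjustment), which does not pass. The ratios of Cox6a2 to Cox6a1 and of Cox8b to Cox8a differed from control by 0.025 and 0.067 (exact permutation p = 0.754 and 0.27, adjusted 0.823 and 0.463).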

How the data were processed

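Gene expression was measured on Affymetrix whole-genome rat arrays. The deposited values are signal intensities on a linear scale, made by the authors with MAS5 per the labels, and the 2% trimmed mean of each array came to 150. Platform annotation gave 20826 of the 31042 probe sets 1 symbol, 436 several and 9780 none, and 57 manufacturer controls were left out of the tests. The annotation pairs probe sets with symbols and may be old.

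Values were taken to log2 and fitted with limma 3.58.1 in R 4.3.3, 1 coefficient per group over the 13 arrays, with eBayes and a variance trend. p-values were adjusted by Benjamini-Hochberg over all probe sets, with a threshold of 0.05. The fit was tested on simulated data with L-NAME-fed arrays changed against control, where it called 11% of 100 changes of 1.5-fold and 44% of 100 of 2-fold. These were drawn from all probe sets, whose median SE was 0.26 in the real data, against 0.083 for the members. Single ratios were compared by 2-sided exact permutation tests (smallest p 0.00794 for 4 against 5 arrays and 0.0286 for 4 against 4). The number of arrays limits the precision.

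Members and gene lists were chosen with earlier results of these data known. Genes were named by rule as the largest rise and fall in each complex, those called where 10 or fewer were, otherwise the 8 with the smallest p, the isoform pairs and catalytic subunits, and in each other list the gene with the smallest p in each direction. Genes named outside the rule (Ndufa8, Ndufb7, Atp5f1c, Atp5pd, Atp5pf, Atp5po, and those with more than 1 probe set) were picked after their values were seen. The Cox7a1 pair was not tested, as Cox7a2 has no probe set of its own symbol.

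Alternatives were other normalizations, 16 or 50 added before log2, a fit on probe sets at or above the median signal, no variance trend, the methods' t-test, the 2 compared groups alone, the mean of a gene's probe sets, a replicate block and leaving out each array. The t-test assumed equal variances on log2 values. It left out the variance stabilization that the study names, whose settings are not given. Centring on bright probe sets, cyclic loess and the beta-actin ratio as a covariate were chosen after seeing the data.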

Additional observations from a re-analysis of the deposited data

Results flagged for a closer look

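Of 141 groups of arrays examined for a value far from the others, 5 had one, where chance gives about 1 in 20. In L-NAME-fed hearts the log2 signal of Ndufb10 was 10.32 on array 2 and 10.51 on the next lowest. On control array 3 the log2 signal of Atp5f1a was 11.57, with 11.69 on the next lowest control array. The same control array had the lowest median change from the control mean over the members, -0.064 against 0.0057 on the next, and likewise over complex IV, -0.095 against 0.0092, and over complex V, -0.063 against 0.010.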

How the results depend on the processing

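Of the alternatives tried, those that rescale the arrays moved the L-NAME results. For L-NAME-fed against control hearts, the members higher and lower and their median log2 change were 15, 42 and -0.17 with quantile normalization, 0, 74 and -0.997 with median centring, 12, 38 and -0.17 with spike-in centring, 10, 48 and -0.26 with centring on bright probe sets, 12, 41 and -0.19 with cyclic loess, and 0, 3 and -0.51 with the beta-actin ratio as a covariate, which does not overlap between these groups and cannot be told apart from them. Averaging a gene's probe sets gave 5 higher, against 6567 of the 24433 genes and other probe sets in that fit. For L-NAME-fed against methionine-fed hearts the same 3 values were 14, 37 and -0.12 with quantile normalization and 11, 37 and -0.15 with cyclic loess. There 0 were higher with median centring (median -0.88), 5 with spike-in centring (-0.28), 10 with centring on bright probe sets (-0.25), 0 without a variance trend, 1 by the methods' t-test and 4 after averaging a gene's probe sets, and with the beta-actin ratio 0 were higher and 0 lower. For L-NAME-fed against methionine-fed, the higher and lower counts over all 31042 probe sets were 5634 and 5752 with quantile normalization. They were 5588 and 5370 with cyclic loess, 4184 and 7976 with median centring and 10301 and 2635 with spike-in centring. Centring on bright probe sets gave 11420 and 2625, no variance trend 7643 and 4246, and the beta-actin covariate 55 and 183. Averaging gave 5813 and 3271 of 24433. The cause of these moves was not tested. The median of all probe sets, 0.22 for L-NAME-fed against control hearts, was -0.014, -0.21, 0.62, 0.53 and -0.0057 under quantile, median, spike-in, bright and loess scaling. Of all 31042 probe sets, 6823 were higher and 6796 lower there with quantile normalization, and 4952 and 9232 with median centring. Spike-in centring gave 13447 and 2225, and centring on bright probe sets 12628 and 2904. Cyclic loess gave 6755 and 6528, and the beta-actin covariate 527 and 493. The methods' t-test at its own unadjusted threshold gave 3 higher and 67 lower for L-NAME-fed against control, 0 and 2 for methionine-fed against control, and 2 and 57 for L-NAME-fed against methionine-fed, and after Benjamini-Hochberg adjustment 3 and 66, 0 and 0, and 1 and 49. With that adjustment it called 8314 higher and 4941 lower of all 31042 probe sets in the first comparison. In the other 2 it called 0 and 0, and 7044 and 4026. The shares at the unadjusted threshold were not worked out.

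In L-NAME-fed against control hearts the sign turned for 20 of the 79 members with quantile normalization, 5 with median centring, 16 with spike-in centring, 10 with centring on bright probe sets and 16 with cyclic loess. The values that follow are those of the complex II median and of genes named by rule for this comparison. With quantile normalization they were 0.15 for the complex II median, 0.0093 for Atp5mc3, 0.16 for Cox5a, 0.0044 for Cox6a1, 0.024 for Ndufa4, 0.052 for Ndufs1, 0.015 for Sdha, 0.31 for Sdhb, 0.31 for Uqcrc1 and 0.16 for Uqcrfs1. With spike-in centring they were 0.14 for complex II, 0.045 for Cox4i2, 0.096 for Cox6a1, 0.10 for Cox7a1, 0.054 for Ndufs1, 0.31 for Sdhb, 0.35 for Uqcrc1 and 0.067 for Uqcrfs1. With centring on bright probe sets they were 0.052 for complex II, 0.0073 for Cox6a1, 0.014 for Cox7a1, 0.22 for Sdhb and 0.27 for Uqcrc1. With cyclic loess they were 0.13 for complex II, 0.10 for Cox5a, 0.018 for Cox6a1, 0.00050 for Ndufa4, 0.035 for Ndufs1, 0.27 for Sdhb, 0.29 for Uqcrc1 and 0.11 for Uqcrfs1. With median centring they were -0.34 for Atp5pb, -0.072 for Ndufa13 and -0.055 for Ndufb10, and -0.10 and -0.075 for Ndufa13 and Ndufb10 against methionine-fed hearts. For methionine-fed against control hearts, spike-in centring gave 0.11 for the member median, 0.060 for Atp5mk and 0.010 for Cyc1, and median centring gave -0.048 for Sdhc.

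Leaving out each array in turn gave 3 higher and 63 to 66 lower for L-NAME-fed against control (median -0.62 to -0.56), 1 to 2 higher and 56 to 65 lower for L-NAME-fed against methionine-fed (-0.58 to -0.45), and 0 and 0 for methionine-fed against control (-0.11 to 0.017, with 0.017 without methionine-fed array 1). Of all 31042 probe sets, 7933 to 8985 were higher and 4801 to 5364 lower in the first comparison. The second gave 6758 to 8020 and 4187 to 4650, and the third 0 to 1 in each direction. Sdhc ranged from -0.051 to 0.066 and Cox6b2 from -0.022 to 0.26 in methionine-fed against control. Cox4i2 lost its call without L-NAME-fed array 2 or 3 (limma adjusted p = 0.075 and 0.0819), and against methionine-fed hearts so did Ndufa13 without L-NAME-fed array 3 (0.0641) and Ndufb10 without methionine-fed array 1 (0.0554).

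Same-numbered arrays of different groups had correlations of their deviations between -0.21 and 0.24, and 2 of 12 were over 0.1. No pairing by number was seen, though so few arrays cannot exclude one. With the replicate number as a block, limma called 3 members higher and 64 lower for L-NAME-fed against control, 2 and 58 for L-NAME-fed against methionine-fed, and 0 and 0 for methionine-fed against control, with Sdhc there at -0.0037. Of all 31042 probe sets this fit called 8285 and 4864, 7833 and 4513, and 0 and 1 in the same 3 comparisons. An array correlated best with its own number in 6 of 24 choices.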

Other observations

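Genes around the respiratory chain also held strong single values in L-NAME-fed against control hearts on the deposited scale. The mitochondrial ribosomal protein genes Mrpl55 and Mrpl54 changed by 1.33 and -1.44 on the log2 scale, and the 73 genes of that list ranged from -1.72 to 1.33. In methionine-fed against control hearts 0 genes of the assembly factor, carrier, regulator and mitochondrial ribosomal lists were called by limma, with 3, 0, 2 and 4 higher and 1, 0, 2 and 0 lower at an unadjusted p under 0.05. These lists held 45, 22, 22 and 73 measured genes. Of all probe sets, 5.72% were higher and 4.97% lower at that threshold in this comparison. Nrf1, the factor whose motif was searched for above, changed by 0.53 ± 0.19 there (adjusted p = 0.368, limma). In L-NAME-fed against control hearts it changed by -0.93 ± 0.19 (adjusted p = 0.000899, limma) on the deposited scale, with mean log2 signals of 4.17 in L-NAME-fed, 5.63 in methionine-fed and 5.10 in control hearts. The 9 cardiomyocyte markers had a median of -0.058 in methionine-fed against control hearts.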
